A study of Mus musculus with 6 samples.

Results

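The genes described here encode the chains of collagen, taken as every row of the expression table whose symbol is Col, a number, a and a number, such as Col1a1. The table lists 44 of them among 18158 features. Of the 44, 21 reached 1 TPM or more in at least 3 of the 6 libraries and were tested, 6 of them fibrillar, 7 of basement membranes and 8 of other kinds. TPM is a transcript level scaled for transcript length and library size, so levels of different genes can be compared, and each library has the same sum. Each library is from the ventricles of 1 mouse, 3 months old and of the outbred CD1 stock. The treated group, called Paro/Neo, is 3 mice given paromomycin with neomycin, both aminoglycoside antibiotics, at 150 mg/kg by intraperitoneal injection 2 times a day for 14 days. The vehicle group is 3 mice injected with PBS over the same 14 days. No genetic alteration is given for either group, and the design text ties the comparison to the transcription factors Meis1 and Hoxb13.

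Collagen chains wind together in helical trimers and are secreted into the matrix around cells. Fibrillar collagens, types I, III and V among them, form the interstitial fibres that carry tension between heart muscle bundles, and fibroblasts make most of them. Type IV collagen forms the sheet-like network of basement membranes, which surround each cardiomyocyte and underlie the endothelium. Other members link these structures, as type VI does, or coat the surface of fibrils, as types XIV and XVI do.

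As to the tissue label, atrial markers are given with the other cell markers, and the ventricular light chain gene Myl2 was at 51694 to 69835 TPM in Paro/Neo and at 55269 to 58925 TPM in vehicle libraries. The steps of the low values put the depth at 9556387 to 15969980 reads per library or more. Paro/Neo replicate 1 stood apart, with a mean correlation with the other libraries of 0.975 across genes, against 0.981 or more for each of the other 5. Its deviations from the gene means also varied with the GC content of the transcripts (Spearman -0.33 over 12322 genes, which are not independent, where the other libraries had -0.12 to 0.29). Results on collagen genes are therefore given with and without that library. In bulk tissue such as this, fewer cells of a type and less RNA per cell cannot be told apart.

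Collagen chain transcripts were at lower levels in Paro/Neo than in vehicle ventricles, across all classes, but no single member passed the test over all genes. Summed over the 44 members, they took up 279, 569 and 563 TPM in Paro/Neo replicates 1 to 3, and 728, 814 and 730.2 TPM in vehicle replicates 1 to 3. Every Paro/Neo heart was below every vehicle heart, and Paro/Neo replicate 1 was the lowest by a wide margin. The Paro/Neo mean was 470.4 TPM ± 166 and the vehicle mean 757 TPM ± 49.4 (SD, n = 3 each), so that the Paro/Neo mean was 62.1% of the vehicle mean. Without Paro/Neo replicate 1 it was 74.7%. Of the 21 tested members, 20 had a log2 change below 0 and 1 above it, where 53.7% of all 12409 genes tested were below 0. The median log2 change of the members was -0.65, against -0.02 over all genes tested, and without Paro/Neo replicate 1 these medians were -0.32 and -0.01. A log2 change here is Paro/Neo minus vehicle on the log2(TPM + 1) scale, which understates differences of low genes.

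By limma with Benjamini-Hochberg adjustment over 12409 genes, 0 of 21 members were lower at an adjusted p under 0.05 (0.0161% of all genes tested) and 0 were higher (0.121%). The smallest adjusted p of a member was 0.197. Without adjustment, 12 members were lower at p under 0.05, where 4.37% of all genes were, and 0 were higher (3.24%). That count of 12 was 7, 3 and 6 without vehicle replicate 1, 2 and 3. The 3 Paro/Neo values lay below the 3 vehicle values for 14 of the 21 members, where this held for 8.22% of all genes tested. Without Paro/Neo replicate 1 the groups were apart in this direction for 14 members again (12.8% of all genes), and 12 members were lower at an unadjusted p under 0.05 (3.96%). Paro/Neo replicate 1 held the lowest of the 6 values for 21 of 21 members, and for 32.8% of all genes. Members that share a cell of origin or a regulator need not vary independently, so these counts carry no p of their own.

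**Figure D1:**
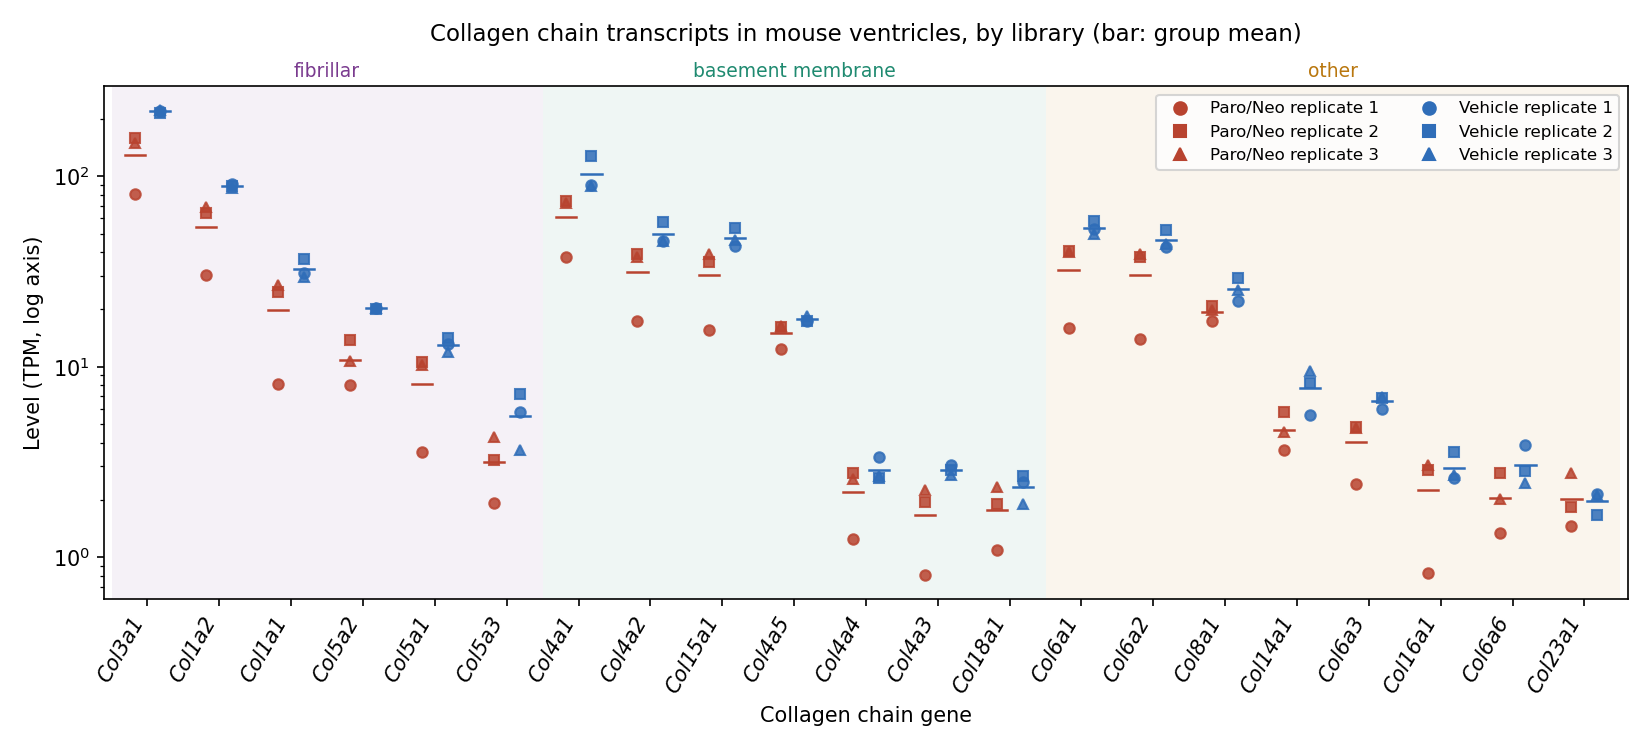
Level in TPM (log axis) of each of the 21 tested collagen chain genes in every library, Paro/Neo in red and vehicle in blue, with a bar at each group mean. Paro/Neo replicate 1 (red circles) is the lowest library for every gene, and for 14 genes all Paro/Neo points lie below all vehicle points.

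Col3a1 encodes the chain of type III collagen, a homotrimer that forms fibrils together with type I in elastic tissues, and it was the most abundant member in both groups. It was at 80.6, 158 and 149 TPM in Paro/Neo replicates 1 to 3, and at 219, 216 and 223 TPM in vehicle replicates 1 to 3. The vehicle hearts lay within a few TPM of each other, and all Paro/Neo hearts lay below them. The log2 change was -0.82 ± 0.23 (SE, 95% interval -1.35 to -0.28), with an adjusted p of 0.434 by limma, and -0.51 ± 0.07 without Paro/Neo replicate 1 (adjusted p 0.128 by limma). It made up 28.9%, 27.8% and 26.5% of the summed collagen level in Paro/Neo libraries and 30.1%, 26.5% and 30.6% in vehicle libraries. It occupies bases 45311538 to 45349706 of chromosome 1, plus strand, in GRCm38 with GENCODE M21, and Col5a2 ends 24614 bases away on the other strand.

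To show the regulatory sequence beside these genes, the 250 bases before the RefSeq start are printed for the most abundant tested member of each class with no annotated exon in any of its windows. These are Col3a1 (chr1:45311288-45311537 on the plus strand), Col15a1 (chr4:47207762-47208011 on the plus strand) and Col8a1 (chr16:57754738-57754987 on the minus strand). Col23a1 (chr11:51289670-51289919 on the plus strand) is added, as the tested member with a log2 change above 0. Sequences are from RefSeq on GRCm38.p6 and read 5′ to 3′ toward the start. Capitals mark matches to 3 promoter motifs on either strand, which may overlap. The first motif is the TATA box, searched with the letters TATAAA or, where the match is on the other strand, TTTATA. The second is the GC box, searched as GGGCGG and on the other strand by its reverse complement CCGCCC. The third is the box of the letters CCAAT, which appears on the other strand as the letters ATTGG.
Col3a1: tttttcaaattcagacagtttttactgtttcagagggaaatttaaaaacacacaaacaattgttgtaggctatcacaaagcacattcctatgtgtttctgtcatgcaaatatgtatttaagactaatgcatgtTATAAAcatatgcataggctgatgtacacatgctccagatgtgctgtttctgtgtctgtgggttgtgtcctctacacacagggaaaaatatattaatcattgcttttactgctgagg
Col15a1: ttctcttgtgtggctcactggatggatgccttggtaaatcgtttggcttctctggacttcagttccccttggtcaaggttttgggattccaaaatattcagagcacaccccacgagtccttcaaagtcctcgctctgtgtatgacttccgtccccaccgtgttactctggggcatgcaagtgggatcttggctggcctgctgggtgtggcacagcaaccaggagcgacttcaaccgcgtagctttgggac
Col8a1: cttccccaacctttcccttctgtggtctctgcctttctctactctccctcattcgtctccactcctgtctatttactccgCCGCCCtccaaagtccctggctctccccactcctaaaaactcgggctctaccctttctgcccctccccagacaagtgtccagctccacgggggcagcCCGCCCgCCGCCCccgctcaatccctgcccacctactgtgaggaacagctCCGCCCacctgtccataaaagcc
Col23a1: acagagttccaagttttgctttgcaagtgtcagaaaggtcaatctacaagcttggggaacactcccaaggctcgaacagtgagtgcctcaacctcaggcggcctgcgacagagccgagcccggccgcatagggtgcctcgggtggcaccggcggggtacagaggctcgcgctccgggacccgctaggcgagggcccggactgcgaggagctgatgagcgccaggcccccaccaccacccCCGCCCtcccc
Of these, Col3a1 has the TATA letters, Col8a1 and Col23a1 have GC boxes and Col15a1 has no match. The RefSeq table held 19 such windows for 17 of the 21 tested members. Among the 19, 12 held a GC box, or 63.2%, against 32.7% of all 32851 promoter windows of that length. The CCAAT letters were in 7 of 19 (36.8%, against 33.8%) and the TATA letters in 1 of 19 (5.26%, against 12.4%). These matches describe the letters only, and no link between letters and levels was tested.

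Type I collagen, the main load-bearing collagen, is built from the products of Col1a1 and Col1a2. Col1a2 was at 30.1, 64.3 and 68.7 TPM in Paro/Neo and at 90.8, 88.8 and 86.1 TPM in vehicle libraries, with no overlap. Col1a1 was at 8.08, 24.7 and 26.9 TPM in Paro/Neo and at 30.9, 36.8 and 29.5 TPM in vehicle libraries. Here too the groups did not overlap, but the highest Paro/Neo value lay close to the lowest vehicle value. The log2 changes were -0.78 ± 0.28 for Col1a2 and -0.83 ± 0.38 for Col1a1 (SE), with adjusted p of 0.547 and 0.671 by limma. Without Paro/Neo replicate 1 they were -0.41 and -0.31. In Paro/Neo replicate 1 Col1a1 stood at 24.9% of the vehicle mean, the smallest such share among the 21 members.

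Type V collagen is a minor component that starts fibrils and limits their width, and its chains come from Col5a1, Col5a2 and Col5a3. Col5a2 was at 8.04, 13.8 and 10.7 TPM in Paro/Neo and at 20.2, 20.2 and 20.4 TPM in vehicle libraries. The Paro/Neo mean was 10.9 TPM ± 2.91 and the vehicle mean 20.3 TPM ± 0.13 (SD, n = 3 each). Col5a2 had the smallest p of the members and stood at 53.6% of the vehicle mean, or at 60.6% without Paro/Neo replicate 1. Its log2 change was -0.87 ± 0.17 (SE, 95% interval -1.27 to -0.47, adjusted p 0.197 by limma), and -0.69 ± 0.12 without that library (adjusted p 0.223 by limma). Col5a1 was at 3.59, 10.6 and 10.2 TPM in Paro/Neo and at 13.1, 14.1 and 11.98 TPM in vehicle libraries, again without overlap. Col5a3 averaged 3.15 TPM ± 1.18 in Paro/Neo and 5.52 TPM ± 1.77 in vehicle hearts (SD, n = 3 each), and these groups overlapped. Over the 6 tested fibrillar members the log2 changes ran from -0.87 to -0.65, with a median of -0.80, or -0.42 without Paro/Neo replicate 1. Of the 6, 5 had groups that did not overlap.

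Among basement membrane genes, the chains of the ubiquitous type IV trimer, Col4a1 and Col4a2, were the most abundant. Col4a1 was at 37.7, 74.2 and 71.9 TPM in Paro/Neo and at 89.9, 128 and 88.8 TPM in vehicle libraries. Col4a2 was at 17.4, 38.9 and 37.4 TPM in Paro/Neo and at 45.6, 57.5 and 45.8 TPM in vehicle libraries. For both genes the groups did not overlap, vehicle replicate 2 was the highest library and Paro/Neo replicate 1 the lowest. Their log2 changes were -0.77 ± 0.27 and -0.73 ± 0.28 (SE), with adjusted p of 0.523 and 0.59 by limma, and -0.46 and -0.36 without Paro/Neo replicate 1. The genes lie head to head on chromosome 8, Col4a1 at 11198423 to 11312826 on the minus strand and Col4a2 at 11312805 to 11449287 on the plus strand, so that their annotated ends overlap by 22 bases. Reads in that stretch could be counted for either gene if strand was not used, and the strand setting is not given in the sources used here.

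Col4a3, Col4a4 and Col4a5 encode the chains of a second type IV trimer, best known from the kidney filter. Col4a5 was at 12.4, 16.1 and 16.4 TPM in Paro/Neo and at 17.5, 17.4 and 18.4 TPM in vehicle libraries. These groups did not overlap, yet the Paro/Neo mean was 84.4% of the vehicle mean, where it was 59.99% for Col4a1 and 63.0% for Col4a2. The log2 change of Col4a5 was -0.24 (95% interval -0.54 to 0.06), or -0.12 without Paro/Neo replicate 1. Without that library the shares were 91.6% for Col4a5, 71.5% for Col4a1 and 77.0% for Col4a2. The difference between these genes was not tested. Col4a4 was at 1.25, 2.77 and 2.57 TPM in Paro/Neo and at 3.36, 2.62 and 2.66 TPM in vehicle libraries, with overlap. Col4a3, which starts 71 bases from Col4a4 on the opposite strand of chromosome 1, averaged 1.67 TPM ± 0.77 in Paro/Neo and 2.87 TPM ± 0.17 in vehicle hearts (SD, n = 3 each), without overlap. The remaining type IV gene, Col4a6, was just under the filter, with 0.223, 0.944 and 0.674 TPM in Paro/Neo and 1.12, 0.768 and 1.07 TPM in vehicle libraries.

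Col15a1 and Col18a1 encode multiplexins, collagens that carry sugar chains and sit at the edge of basement membranes. Col15a1 was at 15.6, 35.5 and 39.2 TPM in Paro/Neo and at 43.1, 53.3 and 46.4 TPM in vehicle libraries, without overlap. Its log2 change was -0.74 ± 0.30 (SE, adjusted p 0.629 by limma), and -0.34 without Paro/Neo replicate 1. Col18a1, whose product releases the fragment endostatin, averaged 1.78 TPM ± 0.64 in Paro/Neo and 2.35 TPM ± 0.40 in vehicle hearts (SD, n = 3 each), with overlap. Over the 7 tested members of this class the log2 changes ran from -0.77 to -0.24, with a median of -0.58, or -0.32 without Paro/Neo replicate 1. Of the 7, 5 had groups that did not overlap.

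Type VI collagen forms beaded filaments that tie basement membranes to the interstitial matrix, and its main trimer combines the products of Col6a1, Col6a2 and Col6a3. Col6a1 was at 15.98, 40.5 and 40.2 TPM in Paro/Neo and at 53.05, 57.9 and 49.98 TPM in vehicle libraries. Col6a2 was at 13.99, 37.8 and 38.9 TPM in Paro/Neo and at 42.7, 52.0 and 44.1 TPM in vehicle libraries. Col6a3 was at 2.44, 4.84 and 4.76 TPM in Paro/Neo and at 6.03, 6.85 and 6.94 TPM in vehicle libraries. None of these genes had overlapping groups, and Paro/Neo replicates 2 and 3 lay close together while replicate 1 was far lower. The log2 changes were -0.83 ± 0.32 for Col6a1, -0.72 ± 0.34 for Col6a2 and -0.64 ± 0.21 for Col6a3 (SE), with adjusted p from 0.503 to 0.685 by limma. Without Paro/Neo replicate 1 they were -0.40, -0.26 and -0.39. The alternative chain gene Col6a6 averaged 2.04 TPM ± 0.71 in Paro/Neo and 3.06 TPM ± 0.74 in vehicle hearts (SD, n = 3 each), with overlap.

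Col8a1 encodes a short-chain collagen of vessel walls. It was at 17.4, 20.8 and 19.9 TPM in Paro/Neo and at 22.1, 29.1 and 25.3 TPM in vehicle libraries, without overlap. Its log2 change, -0.37 ± 0.13 (SE, adjusted p 0.538 by limma), was -0.30 without Paro/Neo replicate 1, so that this gene depended less on that library than most. Col14a1, whose product coats fibrils, was at 3.64, 5.79 and 4.57 TPM in Paro/Neo and at 5.55, 8.21 and 9.53 TPM in vehicle libraries. The highest Paro/Neo value exceeded the lowest vehicle value, and the log2 change was -0.62 ± 0.21 (SE, adjusted p 0.521 by limma). Col16a1, which also encodes a fibril-associated chain, was at 0.83, 2.87 and 3.05 TPM in Paro/Neo and at 2.60, 3.56 and 2.70 TPM in vehicle libraries. Its log2 change was -0.36 ± 0.30 over all libraries and 0.01 ± 0.16 (SE) without Paro/Neo replicate 1. Col23a1, which encodes a membrane-spanning collagen, was at 1.46, 1.85 and 2.78 TPM in Paro/Neo and at 2.16, 1.67 and 2.12 TPM in vehicle libraries. Its log2 change was 0.00 (95% interval -0.43 to 0.44). Over the 8 tested members of the remaining kinds the median was -0.52, or -0.28 without Paro/Neo replicate 1, and 4 of the 8 had groups that did not overlap.

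**Figure D2:**
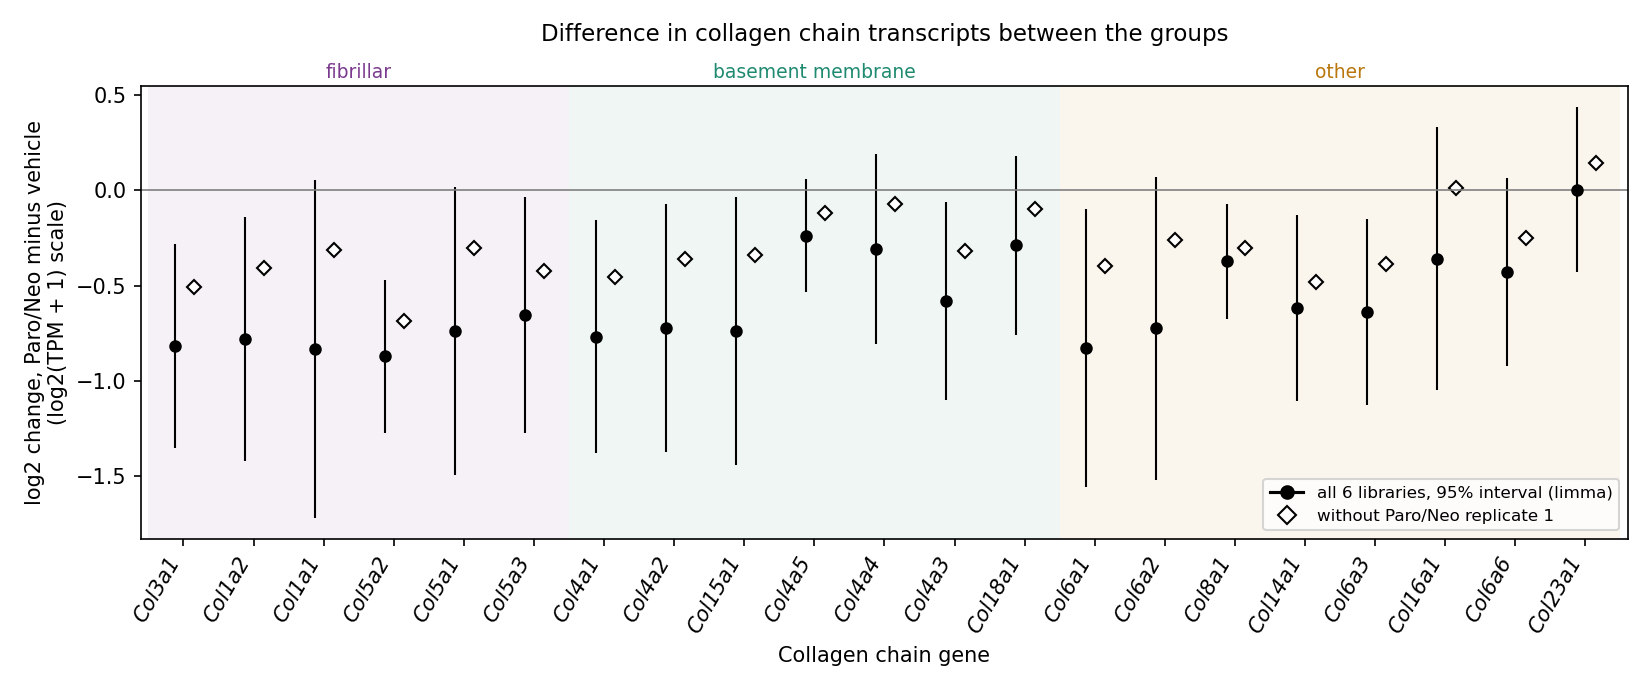
Log2 change (Paro/Neo minus vehicle, log2(TPM + 1) scale) of the 21 tested members with the 95% interval of the limma fit over all 6 libraries (filled points), and the change without Paro/Neo replicate 1 (open diamonds). Filled points run from -0.87 for Col5a2 to 0.00 for Col23a1, and the diamonds lie nearer to 0 or above it in every case.

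The makeup of the collagen pool differed less between the groups than its size. Fibrillar chains made up 47.8%, 48.5% and 48.1% of the summed collagen level in Paro/Neo and 52.3%, 47.1% and 51.5% in vehicle libraries. Basement membrane chains made up 31.0%, 30.3% and 30.7% in Paro/Neo and 28.3%, 32.5% and 28.5% in vehicle libraries. The groups overlapped in both shares. The remaining kinds made up 21.2%, 21.2% and 21.1% in Paro/Neo and 19.4%, 20.4% and 20.04% in vehicle libraries, slightly higher in each Paro/Neo heart. In sums by class, fibrillar chains were at 227 TPM ± 80.97 in Paro/Neo and 380.2 TPM ± 3.85 in vehicle hearts (SD, n = 3 each). Basement membrane chains were at 144 TPM ± 49.7 and the remaining kinds at 99.6 TPM ± 35.1 in Paro/Neo hearts, against 226 TPM ± 33.5 and 151 TPM ± 13.1 in vehicle hearts (SD, n = 3 each). The order of the 5 most abundant members was also the same by both group means, namely Col3a1, Col4a1, Col1a2, Col6a1 and Col4a2.

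**Figure D3:**
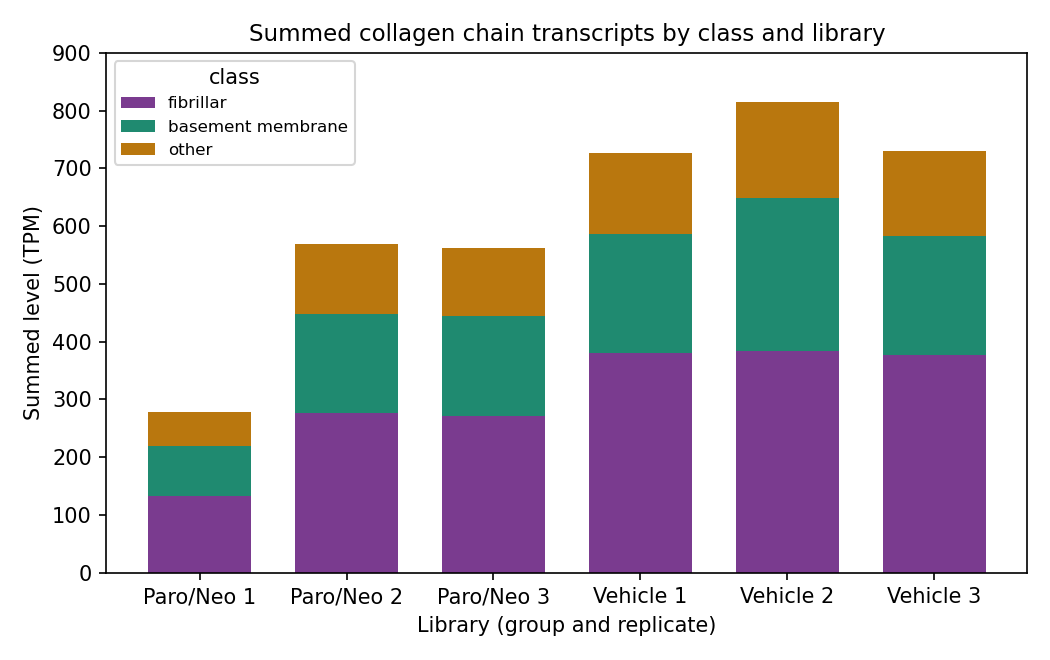
Summed level in TPM of all 44 collagen chain genes in each library, stacked by class. The bars reach 279 to 569 TPM in Paro/Neo and 728 to 814 TPM in vehicle libraries, with similar proportions of the classes.

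Ratios were taken between chains that share a trimer or a fibril. All 7 ratios compared overlapped between the groups. Col4a2 over Col4a1 was 0.461, 0.525 and 0.52 in Paro/Neo and 0.507, 0.45 and 0.516 in vehicle libraries, and Col6a2 over Col6a1 was 0.875, 0.935 and 0.966 in Paro/Neo and 0.805, 0.897 and 0.883 in vehicle libraries. These ratios thus varied little although the levels of the chains differed by more than 2-fold between libraries. For type I, Col1a2 over Col1a1 was 3.73, 2.60 and 2.56 in Paro/Neo and 2.94, 2.41 and 2.92 in vehicle libraries. Col3a1 over Col1a1 was 9.98, 6.42 and 5.55 in Paro/Neo and 7.09, 5.86 and 7.56 in vehicle libraries. Col5a2 over Col5a1 was 2.24, 1.31 and 1.05 in Paro/Neo and 1.54, 1.43 and 1.70 in vehicle libraries. In these last 3 ratios Paro/Neo replicate 1 was the highest of the 6 libraries. It was also highest for Col6a3 over Col6a1, at 0.153, 0.12 and 0.118 in Paro/Neo and 0.114, 0.118 and 0.139 in vehicle libraries. It was not the highest for Col4a2 over Col4a1, Col6a2 over Col6a1 or Col8a2 over Col8a1. Transcript GC content was 47.5% for Col1a2, 48.4% for Col3a1, 54.5% for Col1a1, 46.6% for Col5a2 and 56.7% for Col5a1. It was 52.9% for Col6a3, 57.0% for Col6a2 and 57.7% for Col6a1. For Col4a2 and Col4a1 it was 60.5% and 55.6%, and for Col8a2 and Col8a1 58.0% and 44.9%. The deviations of Paro/Neo replicate 1 varied with GC content, and the part of GC content in these ratios was not tested.

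**Figure D4:**
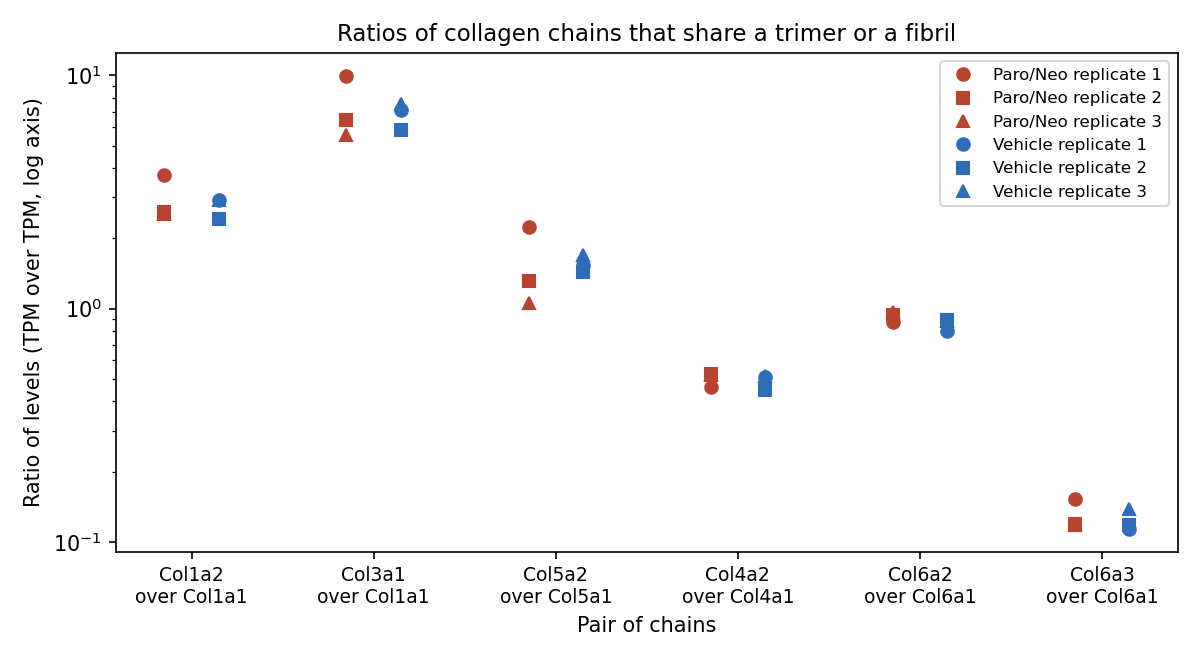
Ratio of TPM levels (log axis) for 6 pairs of collagen chains in each library, Paro/Neo in red and vehicle in blue. The groups overlap for every pair, and Paro/Neo replicate 1 (red circles) is highest for Col1a2 over Col1a1, Col3a1 over Col1a1, Col5a2 over Col5a1 and Col6a3 over Col6a1.

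Against the vehicle mean of each gene, the median deviation of the 21 tested members on the log2(TPM + 1) scale was -1.14, -0.34 and -0.33 in Paro/Neo replicates 1 to 3, and -0.07 to 0.10 in vehicle libraries. Paro/Neo replicates 1, 2 and 3 lay below the lowest vehicle value for 21, 15 and 17 of the 21 members. Transcripts of the tested members had a median GC content of 54.5%, against 50.6% over the 12322 tested genes with a value, and a median longest length of 6119 bases, against 3328.5 bases. With each library corrected for its trend on GC content the median log2 change of the members was -0.59, and with GC content and length corrected it was also -0.59.

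Markers of cells that make collagen are given beside these levels. Of 7 fibroblast markers, 7 had a log2 change below 0, with a median of -0.28 (-0.11 without Paro/Neo replicate 1) and 0 past the threshold, and their summed level was 2852 to 3476 TPM in Paro/Neo and 3484 to 3627 TPM in vehicle libraries. The lowest sum was that of Paro/Neo replicate 1, where Gsn was at 529 TPM, against 981 to 1121 TPM in the other libraries. The largest part of the sum was Dcn, with means of 1820 TPM in Paro/Neo and 1842 TPM in vehicle hearts. For 3 of the 7, Ddr2, Dpt and Tcf21, all Paro/Neo values lay below all vehicle values, with log2 changes of -0.32, -0.28 and -0.30. The groups overlapped for the other 4, with -0.37 for Gsn, -0.11 for Pdgfra, -0.03 for Lum and -0.02 for Dcn. Over all genes tested, 53.7% had a log2 change below 0, and all Paro/Neo values lay below all vehicle values for 8.22%. For the activated fibroblast list, with 4 of 6 genes tested and all 4 below 0, the sum was 69.6 to 98.4 TPM in Paro/Neo and 108 to 162 TPM in vehicle libraries. Most of it was Postn and Acta2, with means of 43.4 and 34.1 TPM in Paro/Neo and 69.6 and 54.6 TPM in vehicle hearts. Of the 4, only Postn had groups that did not overlap, and Comp had a log2 change of -0.09. The median log2 change of the 4 was -0.47, or -0.29 without Paro/Neo replicate 1. Endothelial markers summed to 3460 to 4036 TPM in Paro/Neo and 4142 to 4578 TPM in vehicle libraries, with 6 of 7 below 0. Most of that sum was Fabp4, at 3082 to 3564 TPM in Paro/Neo and 3650 to 4011 TPM in vehicle libraries. The groups were also apart for Pecam1 and Kdr, and overlapped for Cdh5, Tie1, Tek and Emcn. The median log2 change of the endothelial list was -0.27, or -0.14 without Paro/Neo replicate 1. Smooth muscle and pericyte markers, 6 of 8 below 0, summed to 474 to 758 TPM in Paro/Neo and 533 to 598 TPM in vehicle libraries. Paro/Neo replicate 1 had the highest sum through Rgs5, at 610 TPM, while the median deviation of the list from the vehicle mean was lowest there, at -0.54 on the log2(TPM + 1) scale. No marker of these lists was at 0 in all libraries. Their part in the collagen levels was not tested.

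Epicardial and mesothelial markers, of which 2 of 6 could be tested and both were below 0, summed to 4.62 to 8.04 TPM in Paro/Neo and 10.2 to 12.4 TPM in vehicle libraries. Cardiomyocyte markers summed to 100384 to 126968 TPM in Paro/Neo and 106462 to 110723 TPM in vehicle libraries, with 4 of 8 below 0. The median deviation of that list was -0.36, 0.17 and 0.20 in Paro/Neo replicates 1 to 3. Macrophage markers summed to 204 to 263 TPM in Paro/Neo and 197 to 234 TPM in vehicle libraries, with 1 of 6 below 0. Atrial markers, with 1 of 4 below 0, summed to 575 to 1264 TPM in Paro/Neo and 683 to 1098 TPM in vehicle libraries. Paro/Neo replicate 1 had the highest Myl4, Myl7 and Sln of the 6 libraries, at 214, 221 and 93.7 TPM, and the lowest Nppa, at 240 TPM. The median deviation of the atrial list was 1.65, -0.53 and 0.34 in Paro/Neo replicates 1 to 3, and -1.29 to 0.67 in vehicle libraries. The part of atrial tissue in the collagen levels was not tested. Blood markers, 4 of 4 below 0, summed to 2228 to 3582 TPM in Paro/Neo and 2095 to 4552 TPM in vehicle libraries, with overlap. Skeletal muscle markers, 1 of 2 tested below 0, summed to 3294 to 3477 TPM in Paro/Neo and 3170 to 3868 TPM in vehicle libraries. Nearly all of that sum was Ckm and Acta1, with means of 2751 and 603 TPM in Paro/Neo and 2923 and 552 TPM in vehicle hearts. The untested Myh4 and Myod1 were near 0, at no more than 0.099 and 0.132 TPM in any library. Of the markers in these lists, 0 passed the threshold by limma.

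The genes that modify, cleave, crosslink or bind collagen mostly had log2 changes below 0, of smaller size. Of 42 listed, 35 were tested, with 30 below 0 and 5 above, a median log2 change of -0.24 and 0 past the threshold in either direction by limma. Without adjustment, 9 were lower (4.37% of all genes tested) and 1 higher (3.24%) at p under 0.05. The groups did not overlap for 13 lower genes (8.22%) and 1 higher gene (6.04%). The medians were -0.22 for 18 hydroxylases, chaperones and related genes of the secretory pathway, -0.39 for 5 propeptide enzymes, -0.34 for 4 crosslinking enzymes and -0.14 for 7 receptors. The collagen-binding gene Sparc had -0.55. Adamts2, which cuts the amino-terminal propeptide from fibrillar procollagens, had the smallest p. It was at 2.91, 5.69 and 4.61 TPM in Paro/Neo and at 7.05, 8.32 and 7.84 TPM in vehicle libraries (log2 change -0.72 ± 0.20 SE, adjusted p 0.397 by limma), without overlap. The lysyl oxidase-like crosslinking genes Loxl2 and Loxl1 came next, at 12.6 TPM ± 2.24 and 13.2 TPM ± 3.72 in Paro/Neo hearts, against 17.5 TPM ± 1.30 and 20.96 TPM ± 3.05 in vehicle hearts (SD, n = 3 each). Their adjusted p were 0.483 and 0.496 by limma. Without Paro/Neo replicate 1 the adjusted p by limma was 0.427 for Adamts2, 0.568 for Loxl2 and 0.549 for Loxl1. The counts and medians of these gene lists are over all 6 libraries only.

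The 23 members not tested were low in both groups. Of these, 22 were below 1 TPM in every library and 10 had at most 5 reads in every library, with 61 reads, of Col4a6, as the highest. They were the fibrillar genes Col2a1, Col11a1, Col11a2, Col24a1 and Col27a1, the basement membrane gene Col4a6, and 17 of other kinds: Col6a4, Col6a5, Col7a1, Col8a2, Col9a1, Col9a2, Col9a3, Col10a1, Col12a1, Col13a1, Col17a1, Col19a1, Col20a1, Col22a1, Col25a1, Col26a1 and Col28a1. Col9a1 was listed at 0 throughout. Together they made up 1.16%, 0.991% and 0.781% of the summed collagen level in Paro/Neo and 0.656%, 0.68% and 0.733% in vehicle libraries. Among the highest, Col27a1, a fibrillar gene of cartilage, was at 0.712, 0.744 and 0.748 TPM in Paro/Neo and at 0.56, 0.745 and 0.746 TPM in vehicle libraries. For Col6a5, Col12a1 and Col24a1 all Paro/Neo values lay below all vehicle values. The share of such features below the filter was not computed. For every other untested member the groups overlapped. Some of these had the higher mean in Paro/Neo, as Col22a1 (0.19 against 0.118 TPM) and Col25a1 (0.154 against 0.104 TPM) did. Col6a5 was at 0.0532, 0.129 and 0.233 TPM in Paro/Neo and at 0.644, 0.282 and 0.306 TPM in vehicle libraries, with 4 to 14 reads in Paro/Neo and 14 to 49 in vehicle libraries. Col12a1 was at 0.148, 0.14 and 0.132 TPM in Paro/Neo and at 0.167, 0.249 and 0.312 TPM in vehicle libraries. Col24a1 had at most 1 read in a Paro/Neo library and at most 4 in a vehicle library.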

How the data were processed

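Per the file headers, the deposited values of the authors are TPM, with 1 column per mouse over 18158 features. The submitters' processing notes list edgeR, featureCounts, Subread, STAR 2.5.3a and FastQC 0.11.5 and the build mm10, without roles or order. Annotation and strand setting were not given in the sources used here. Groups and replicate numbers follow the sample titles (the descriptions number the Paro/Neo mice 2 to 4). Members, lists and tests were chosen with earlier results of these data known.

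Values were transformed to log2(TPM + 1). Genes that reached 1 TPM in 3 or more of the 6 libraries, 12409 in all, were fitted with limma 3.58.1 in R 4.3.3 (eBayes with trend, two-sided, Benjamini-Hochberg adjustment, threshold 0.05). The fit was also run on simulated data with independent genes and no deviating library, unlike these data. An exact permutation test of 3 against 3 cannot go below p = 0.10, so none is given. Whole reads were inferred from ratios between libraries, to within 0.001 of a read for 17574 of 17574 features above 0; they are lower estimates. Coordinates and GC content are from GENCODE M21 (GRCm38), matched by symbol. All members at the filter are named. Values by library are given for the 5 most abundant of each class and the 5 smallest p; those of Col16a1, Col23a1 and the untested members were added after their values were seen. Alternatives are in the closing section.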

Additional observations from a re-analysis of the deposited data

How the results depend on the processing

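Under all 16 alternatives 0 members passed the threshold by limma, the smallest adjusted p being 0.0762, and 330 of 334 member values kept their direction. The others were Col23a1, at -0.0066 with a pseudocount of 0.1, -0.17 without Paro/Neo replicate 3 and -0.07 without vehicle replicate 2 (range -0.17 to 0.14 with 1 library left out), and Col16a1, at 0.011 without Paro/Neo replicate 1 (range -0.56 to 0.011). The cause was not tested. With 1 library left out, the members' median was -0.85 to -0.32, the ratio of summed TPM 0.556 to 0.747 (0.621 over all libraries), the count with groups apart 14 to 17, and the count at an unadjusted p under 0.05 was 3 to 15. Array weights let deviating libraries count less and gave Paro/Neo replicate 1 a weight of 0.26. With them the members' median was -0.41, and 10 members were lower at an unadjusted p under 0.05 by limma. Without a filter the median over 43 members was -0.24, and 31 of the 43 were below 0, against 20 of 21 with the filter. The added members are low, and why the median moved was not tested.

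Over all genes, 15 higher and 2 lower passed. These counts were 4 to 23 and 0 to 4 with 1 library left out, 5 and 1 without a filter, and 25 higher with the replicate number as a block. With block and GC correction together they were 4 and 1. Lower genes numbered 1 with quantile normalization and 4 with array weights. Under the block, 15 members were lower at an unadjusted p under 0.05. Same-numbered libraries did not deviate together across genes (correlations -0.05, -0.04 and -0.12). These values cannot show whether the number marks a litter, day or batch, and no label says so. The correction for GC content and length was chosen after seeing the data. Low members are limited by depth.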
